A study of Sus scrofa with 75 samples.

Results

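The genes of blood clotting and clot removal were followed across pig tissues. They were 32 genes named by symbol: 21 proteins of plasma that are made mainly by the liver, and 11 genes of the vessel wall and blood cells. The deposited annotation held 31 of the 32 under their symbol, 20 of the liver-made group and 11 of the other, among 35798 genes with a value. The remaining gene, FGA, had no named entry. An unnamed entry at chr8:74574685-74584200 on the plus strand (ENSSSCG00000008998) covered the whole span that RefSeq gives FGA on the same assembly. Its values are given beside the members as "the FGA entry" and are left out of their counts.

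RNA came from heart, kidney, liver, lung and spleen of adult male pigs aged 12 months, in groups that the labels call BS and DSE without saying what the codes stand for. Each tissue had 4 BS and 4 DSE animals, and the same 8 animals gave all 5 tissues. Short reads, from RNA freed of ribosomal RNA, were deposited as transcripts per 1000000 (TPM), a level scaled to transcript length and to the same total in every library, so that genes can be compared with each other. Long PacBio reads of full-length (FL) transcripts came from 10 libraries, 1 for each pig group and tissue, with 119623 to 456783 reads, while the read depth behind the TPM values is unknown. The labels name each animal by its group and a number, and say nothing else about how the animals were related or handled. Further animals, labelled DT, were not analysed here.

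The tissue labels matched their defining genes. All 10 hepatocyte markers were at least 4-fold higher in liver than in each other tissue, as were 6 of 6 cardiomyocyte markers in heart, 6 of 6 tubule markers in kidney, 5 of 5 alveolar markers found in lung and 6 of 6 B and T cell markers in spleen. These are whole tissues, so fewer cells of a type and less RNA per cell cannot be told apart.

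Clotting is a chain of proteases, each held inactive in plasma until the one before it cuts it, that ends with thrombin turning fibrinogen into fibrin. Hepatocytes secrete most of these proteases, their cofactors and their plasma inhibitors. Endothelium, smooth muscle, macrophages and platelets supply the starter of the chain, tissue factor, as well as von Willebrand factor, the surface brakes on thrombin, and the activators that turn plasminogen into plasmin, the enzyme that dissolves fibrin.

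The liver-made group had its highest mean level in liver for 20 of 20 members. The summed level of the 20 members in liver was lowest at 24893, with a median of 39677 and a highest value of 54726 TPM over 8 animals. In kidney it was 1129.5, 1399.9 and 1643 TPM, in lung 430.1, 939 and 1502 TPM, in spleen 50.8, 145 and 249 TPM, and in heart 37.1, 54.2 and 84.9 TPM, again as lowest, median and highest. No liver overlapped any other tissue. Of the 20, 15 were enriched in liver, meaning at least 4-fold above each of the 4 other tissues with a Benjamini-Hochberg adjusted p under 0.05 in limma on log2(TPM + 1). Of all 16481 genes tested, 2.2% met that rule in liver. The heat map of all 40 libraries shows this block beside the lung-centred pattern of the vessel-wall genes.

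**Figure D1:**
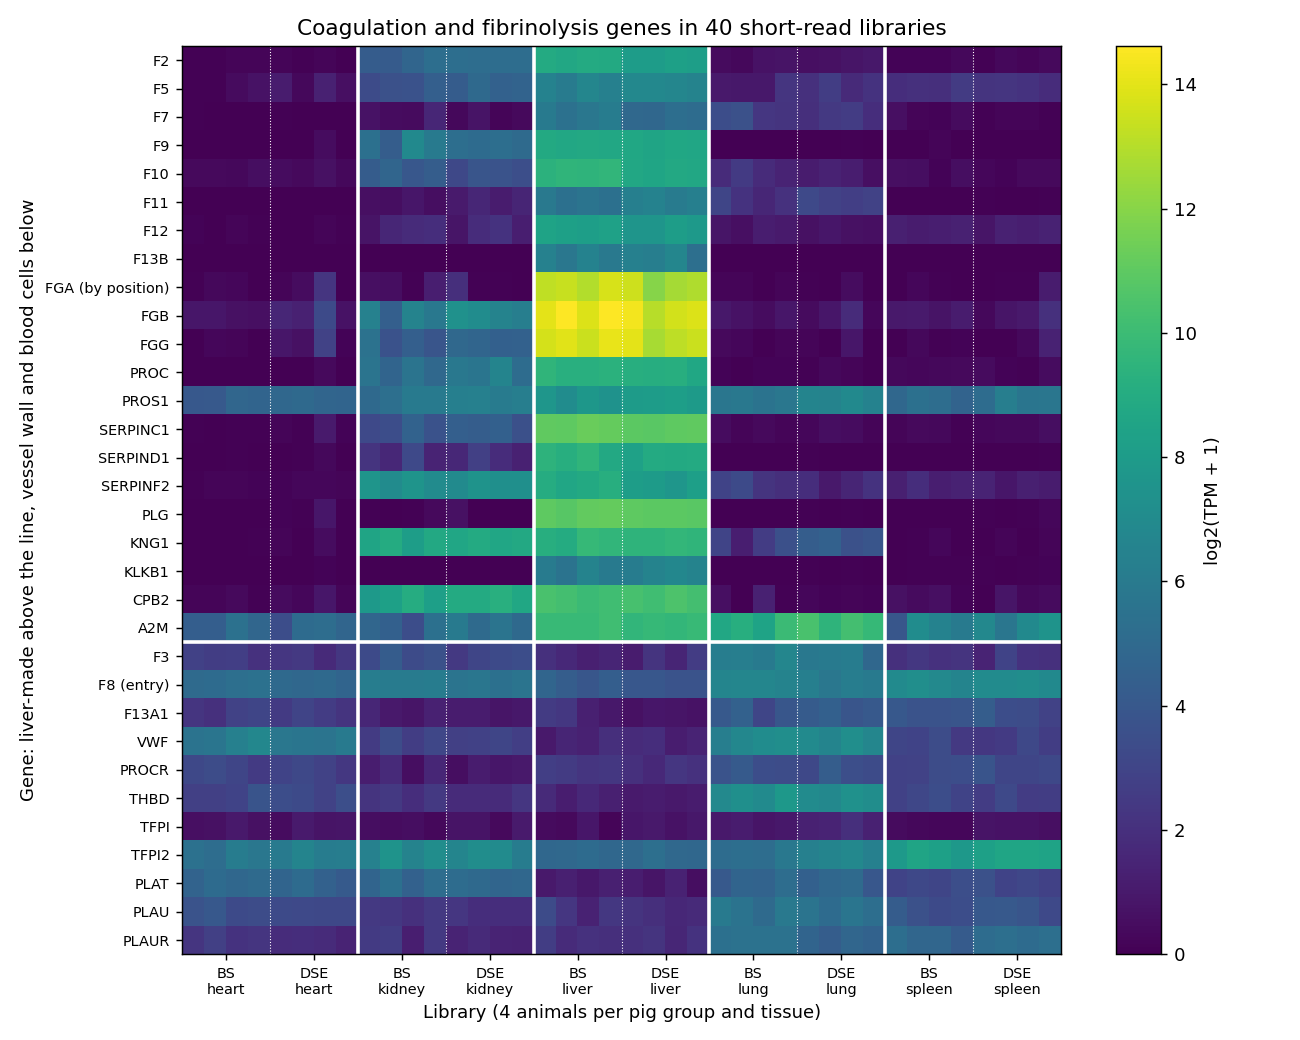
Levels of the members as log2(TPM + 1), 1 row per gene and 1 column per library, with BS and DSE animals side by side within each tissue. The liver columns are bright for the 20 liver-made members and the FGA entry above the white line, while THBD and VWF below it are brightest in lung and TFPI2 in spleen.

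Fibrinogen made up most of that liver signal. FGB, the Bβ chain (chr8:74595688-74614824, minus strand), stood at 16855, 24136, 14999 and 25108 TPM in BS1 to BS4, and at 21055, 8608, 12639 and 14614 TPM in DSE1 to DSE4. FGG, the γ chain (chr8:74553105-74563688, plus strand), ran from 6607 in DSE2 to 17846 TPM in BS4, with a median of 12037. The FGA entry, between these neighbours on the chromosome, ran from 3909.8 to 13677 TPM in the same animals, with a median of 8689. BS4 was the highest and DSE2 the lowest liver for all 3 chains.

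The 3 chains rose and fell together from animal to animal. On log2(TPM + 1) over the 8 livers, Pearson's r was 0.99 between the FGA entry and FGG (Spearman's rho 1; exact permutation test, two-sided, adjusted p = 0.000149 for each over 3 pairs). It was 0.99 between FGB and FGG (rho 0.98; adjusted exact p = 0.000248 and 0.000397) and 0.98 between the FGA entry and FGB (rho 0.98; adjusted exact p = 0.000223 and 0.000397). Without BS4 and DSE2, the animals farthest from the median, r was 0.98, 0.96 and 0.94 in the same order. All 3 values come from the same 8 libraries, so they share whatever sets a library's level. As shares of the summed chains in liver, FGB held 44.5% ± 1.5, FGG 32.8% ± 1.16 and the FGA entry 22.7% ± 1.37 (SD, n = 8).

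Among the proteases of the chain, liver levels spanned a wide range. F9, which activates factor X on platelets, had a median of 421 TPM, F10, the protease that makes thrombin, 556, F2, the precursor of thrombin, 372, and F12, which starts the contact pathway, 287. KLKB1, prekallikrein, stood at 80.7, F11 at 61.9 and F7, the partner of tissue factor, at 40.1 TPM. F5, the cofactor of factor Xa, had 97.3 TPM, and F13B, the carrier subunit of the fibrin cross-linking enzyme, 77.1 TPM. All 9 were enriched in liver, from a difference of 2.38 on the log2(TPM + 1) scale for F5 over kidney (SE 0.18, adjusted p = 1.37e-13 in limma) to 6.57 for F12 over kidney (SE 0.14, adjusted p = 1.69e-29 in limma). That scale understates the change of genes that are low in the other tissue.

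Antithrombin and plasminogen stood above the clotting proteases in every liver. SERPINC1, antithrombin, ran from 1846 to 2504 TPM in liver with a median of 2106. PLG, plasminogen, ran from 1785 to 2274 with a median of 1977, and its difference from the next tissue, heart, was 10.81 on the log2(TPM + 1) scale (SE 0.09). PROC, the anticoagulant protease that cuts factors Va and VIIIa, had a median of 586 TPM, and SERPIND1, heparin cofactor II, 492 TPM. All 4 were enriched in liver. Overlapping annotated genes share part of the span of SERPINC1 (ZBTB37), SERPIND1 (PI4KA) and PLG (SLC22A3), and the strand setting of the counting is not given in the sources used here.

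The 5 members of this group that were not enriched had a tissue close behind liver. KNG1, kininogen, was at 510.4, 749 and 889 TPM in liver (lowest, median, highest) and at 277, 425 and 501 in kidney, a log2(TPM + 1) difference of 0.80 (SE 0.19, adjusted p = 0.000225 in limma). CPB2, the carboxypeptidase that protects fibrin from lysis, had 987, 1205 and 1501 TPM in liver against 231, 456 and 596 in kidney, with no overlap and a difference of 1.59. SERPINF2, the plasmin inhibitor, had 206, 356 and 582 TPM in liver against 125, 155 and 194 in kidney, again without overlap, with a difference of 1.20. PROS1, the cofactor of activated protein C, had 136, 231 and 291 TPM in liver against 46.9, 71.9 and 123 in lung, and was above 15 TPM in each of the 40 libraries.

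A2M, the broad protease inhibitor, was the only member of the group without a clear liver excess at the level of whole genes. Liver values ran from 781 to 1118 TPM and lung values from 361 to 1366, with the highest value in the DSE1 lung and the tissues overlapping. The liver to lung difference was 0.28 on the log2(TPM + 1) scale (SE 0.33, adjusted p = 0.435 in limma). With TPM rescaled by median ratios it was 1.75 (adjusted p = 1.27e-05), and 18 of the 20 members were then enriched in liver. That rescaling moved the median gene by 0.66 in liver and by -0.60 in lung on the log2 scale. A paralog, PZP by RefSeq, lies next to A2M as an unnamed entry, so shared reads make the A2M level uncertain.

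Kidney carried several liver-made transcripts, but in other proportions than liver. Besides KNG1, CPB2 and SERPINF2, kidney medians were 88.3 TPM for FGB, 48.3 for PROC, 38.3 for F9, 35.9 for F2, 21.6 for FGG, 19.1 for F5, 15.3 for SERPINC1 and 14.0 for F10. PROS1 and A2M had kidney medians of 65.9 and 31.7 TPM. FGB in kidney was 86.5, 20.5, 92.5 and 56.4 TPM in BS1 to BS4 and 168, 139, 90.2 and 74.8 in DSE1 to DSE4. The FGA entry was between 0 and 2.93 TPM in the same 8 kidneys, with a median of 0.259. FGB was thus present in every kidney, while the third chain was at or near 0.

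The chain shares differed accordingly. In kidney FGB held 76.9% ± 8.28 of the summed chains, FGG 22.4% ± 8.17 and the FGA entry 0.657% ± 0.773 (SD, n = 8), and no kidney overlapped a liver for FGB or the FGA entry. Albumin, a hepatocyte transcript that stood above each fibrinogen chain in every liver, was between 0.204 and 18.5 TPM in kidney. As a percentage of the mean liver level, kidney FGB was 0.119 to 0.976, FGG 0.093 to 0.358, the FGA entry 0 to 0.033 and albumin 0 to 0.032. KNG1 was 38.0 to 68.9 percent, SERPINF2 32.9 to 51.1 and CPB2 18.8 to 48.5 percent of the liver mean on the same scale.

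**Figure D2:**
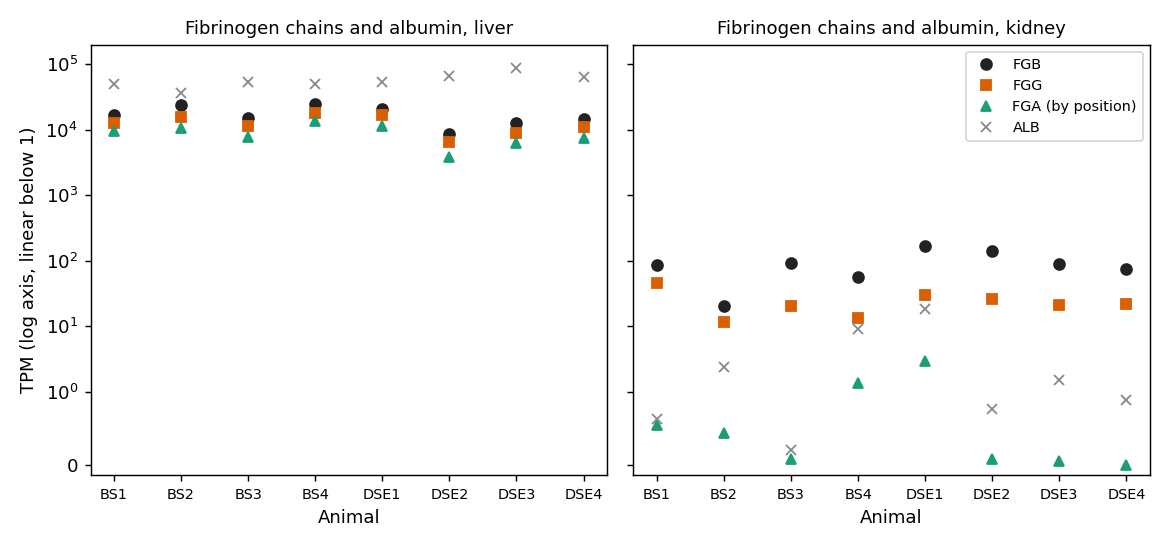
TPM of the fibrinogen chains and of albumin (ALB) in the liver (left) and kidney (right) of each of the 8 animals, on a log axis that is linear below 1. In liver the 3 chains keep 1 order and distance in every animal, while in kidney FGB and FGG stay above 10 TPM and the FGA entry is at 2.93 TPM or below.

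Long reads gave the same split in kidney. FGB had 79 FL reads in the BS kidney library, 173 per 1000000 reads (Wilson 95% interval 139 to 216), and 39 in the DSE library, 232 per 1000000 (169.7 to 317). FGG had 33 and 3 reads. The FGA entry had 0 in both, which allows up to 6.57 and 17.8 per 1000000, whereas the liver libraries held 2557 and 610 of its reads. These intervals and limits cover counting error only. In liver the long reads gave other chain proportions than the short reads. FGB had 3856 reads in the BS and 2540 in the DSE liver library, and FGG 2485 and 781. The FGA entry was thus near FGG in the BS library, where their Wilson 95% intervals overlap (8700 to 9398 and 8451 to 9139 per 1000000). In the DSE library the FGA entry was below FGG. KNG1 had 1101 and 251 reads in the kidney libraries, F9 236 and 31, CPB2 109 and 108, and SERPINF2 51 and 24.

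Over the 10 long-read libraries, 14 members were enriched in liver by edgeR's quasi-likelihood test at an adjusted p under 0.05 and the same 4-fold rule, against 4.55% of 4110 genes tested. They were F9, F10, F12, F13B, FGB, FGG, PROC, SERPINC1, SERPIND1, SERPINF2, PLG, KNG1, CPB2 and A2M. A2M, at 3657 and 1735 liver reads, was 2.91 above the next tissue on the log2 scale (adjusted p = 1.86e-08 in edgeR). KNG1 was at 2.01, beside the 4-fold threshold of 2, and fell under it or lost its adjusted p in 6 of 10 fits with 1 library left out (down to 1.69, adjusted p up to 0.0691 in edgeR). With 1 library per pig group and tissue, the calls rest on the BS liver library in part: without it 9 members were called. DESeq2 called 5 of the 14 and lost 9, of which 8 were still at least 4-fold above the next tissue but with an adjusted p of 0.324 to 1 (F12 10.80, FGG 8.02 and SERPINC1 7.31 on the log2 scale), and KNG1 was at 1.97. Each of those 8 had at least 1 tissue with 0 reads, as did 4 of the 5 that DESeq2 called. F2, F7, KLKB1, VWF, PROCR and THBD had no long-read entry. F5, F11, PROS1, F8 and TFPI had long reads but were left out of the test by the filter on low counts.

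In heart and spleen, traces of liver transcripts were highest in 1 library. In heart the DSE3 library held the highest value for 15 of 21, the 20 members and the FGA entry, with FGB at 8.76, FGG at 6.52 and the FGA entry at 3.76 TPM, and albumin there was 39.2 TPM against 1.43 to 10.2 in the other hearts. In spleen the DSE4 library was highest for 11 of these 21, with FGB at 3.05 and albumin at 12.0 TPM. The part of stray liver RNA in these values was not tested. Lung also held F7 (2.80, 4.14 and 11.4 TPM as lowest, median and highest), F11 (2.01, 5.90 and 8.39) and KNG1 (1.35, 11 and 21.8), with albumin between 0.292 and 11.1 TPM.

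The vessel-wall and blood-cell group had its highest summed level in lung. Its 11 members summed to 522, 591 and 789 TPM in lung (lowest, median, highest), 395, 552 and 623 in spleen, 175, 218 and 330.3 in kidney, 184, 210.5 and 278 in heart and 56.8, 66.5 and 88.0 in liver. These sums include transcripts of another gene, MPP1, that share the F8 entry. Without them and the transcript that joins both genes, an alternative added after seeing the data, the medians were 526 TPM in lung, 447 in spleen, 201 in heart, 177 in kidney and 54.3 in liver, so that heart stood above kidney. As deposited, lung had the highest mean for 8 of the 11, spleen for 2, TFPI2 and the F8 entry, and kidney for 1. Median-ratio scaling turned the lung lead of VWF (-0.42), TFPI (-0.16) and PLAUR (-0.22) and the kidney lead of PLAT (-0.68 on the log2 scale). Of the 11, 2 were enriched in lung by the rule used for liver, against 2.64% of all genes tested. No member was enriched in kidney (background 2.56%), spleen (1.48%) or heart (1.75%). The 10 endothelial markers summed to between 1022 and 1647 TPM in lung and between 118 and 211 in liver, and their part in the lung levels was not tested.

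THBD and F3 were the lung-enriched members, and they act in opposite directions. THBD, thrombomodulin, which turns thrombin into an activator of protein C (chr17:30217303-30224099, minus strand), was at 111, 138 and 222 TPM in lung and at 5.78, 7.64 and 13 in heart, the next tissue. The difference was 4.0 on the log2(TPM + 1) scale (SE 0.15, adjusted p = 7.24e-22 in limma). F3, tissue factor, which starts clotting with factor VIIa (chr4:122826644-122837672, plus strand), was at 28.7, 66.6 and 103 TPM in lung and at 4.31, 9.01 and 17.7 in kidney, a difference of 2.67 (SE 0.21, adjusted p = 1.02e-12 in limma). No lung overlapped another tissue for either gene. Heart and spleen did not differ for THBD beyond their spread (0.25, adjusted p = 0.124), nor for F3 (0.23, adjusted p = 0.326 in limma).

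VWF, the carrier of factor VIII that tethers platelets, was split between lung and heart. It stood at 74.9, 116 and 151 TPM in lung and at 46.4, 52.8 and 108 in heart, so the tissues overlapped, while medians in kidney, spleen and liver were 5.97, 5.93 and 1.75 TPM. The lung to heart difference was 0.92 (SE 0.18, adjusted p = 1.86e-05 in limma) on TPM as deposited and -0.42 after median-ratio scaling, so the order of these tissues depends on the scaling. Kidney and spleen did not differ beyond their spread (0.07, adjusted p = 0.743 in limma). The VWF entry also holds 2 transcripts at the position of the next gene, ANO2 by RefSeq, which made up 0.284% of its lung level and 16.1% of its kidney level.

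Several surface and fibrinolytic genes had close levels in their leading tissues. PLAUR, the urokinase receptor, was at 19.1, 34.0 and 44.7 TPM in lung and 17.1, 34.4 and 40.1 in spleen (difference 0.03, adjusted p = 0.892 in limma; -0.22 after scaling). F13A1, the catalytic subunit of the fibrin cross-linking enzyme, was at 16 in lung and 12.6 in spleen by median (0.35, adjusted p = 0.15 in limma). PROCR, the endothelial protein C receptor, was at 7.91, 10 and 18.6 in lung and 6.23, 7.73 and 12.7 in spleen (0.42, adjusted p = 0.0389 in limma), a call that was lost without BS1, BS2, DSE2, DSE3 or DSE4 (largest adjusted p 0.207). PLAT, tissue plasminogen activator, had medians of 29.8 TPM in kidney, 26.6 in heart and 24.7 in lung, and no pair of these passed the test on deposited TPM (kidney against heart 0.20, adjusted p = 0.274 in limma), though heart was above kidney after scaling (-0.68).

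The remaining genes of the group had 1 leading tissue. PLAU, urokinase, was at 32.8, 47.4 and 63.5 TPM in lung and at 8.49, 12.4 and 18.2 in spleen, without overlap (1.81, adjusted p = 1.51e-10 in limma). TFPI2, a matrix-bound protease inhibitor (chr9:73673534-73689095, minus strand, with GNGT1 overlapping), led in spleen at 224, 338 and 391 TPM, against 70.4, 117 and 179 in kidney (1.49, adjusted p = 1.61e-10 in limma). TFPI, the inhibitor of tissue factor with factor VIIa, was low everywhere and highest in lung at 0.802, 1.34 and 2.86 TPM, where its difference from heart was 0.50 on deposited TPM and -0.16 after scaling.

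F8, the cofactor of factor IXa, could not be read from its entry as deposited. The entry (chrX:125229450-125350853, minus strand) had its highest level in spleen, at 95.9, 128 and 150.1 TPM. Of its 8 transcripts, 5 lay at F8 itself (chrX:125265328-125350853), 2 lay downstream (chrX:125229450-125251724) at the position that RefSeq gives MPP1, a gene of red cell membranes, and 1 joined both. DKC1 and SMIM9 overlap the entry as well. Taken apart, a choice made after seeing the data, the F8 transcripts were 23.3 ± 6.80 TPM in lung, 19.9 ± 3.96 in heart, 19.6 ± 5.71 in spleen, 6.46 ± 1.63 in kidney and 4.99 ± 1.26 in liver (SD, n = 8). The downstream transcripts were 104 ± 14.1 in spleen, 57.2 ± 24.1 in lung, 50.5 ± 11.5 in kidney, 11.5 ± 3.26 in heart and 11.1 ± 3.97 in liver.

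F8 itself therefore had another order than its entry. Lung, heart and spleen did not differ beyond their spread (lung over heart 0.19, adjusted p = 0.26; lung over spleen 0.25, adjusted p = 0.18 in limma). Heart was above kidney by 1.49 on the log2(TPM + 1) scale (adjusted p = 1.72e-10 in limma), and kidney and liver did not differ at the threshold (0.31, adjusted p = 0.071 in limma). F8 transcripts were 60.3% of the entry in heart, 30.8% in liver, 29.9% in lung, 15.2% in spleen and 11.6% in kidney. FL reads at F8 numbered 14 and 5 in the BS and DSE hearts and at most 3 in each other library.

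**Figure D3:**
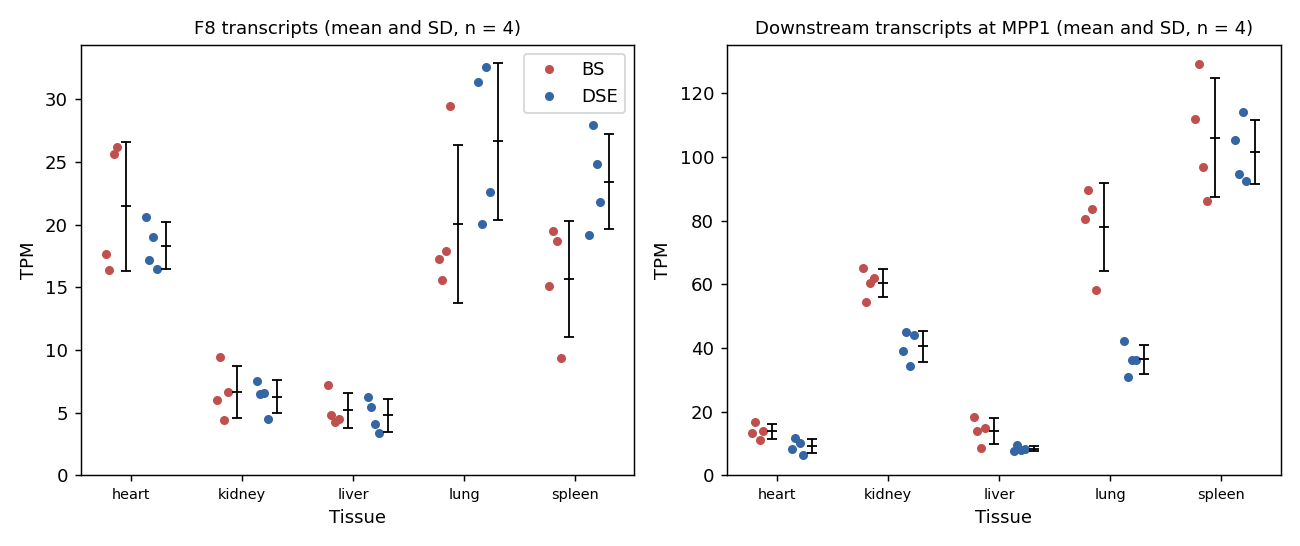
TPM of the 5 transcripts at F8 (left) and of the 2 downstream transcripts at MPP1 (right) that share 1 entry, by tissue, with 1 point per animal and bars for the mean and SD of 4 animals. F8 transcripts are higher in heart, lung and spleen than in kidney and liver, while the downstream transcripts are higher in BS than DSE animals in heart, kidney and lung.

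The other gene lists of the pathway gave the setting. None of 8 genes of the vitamin K cycle and of factor secretion was enriched in a tissue, and in liver VKORC1, which recycles vitamin K, reached 155 ± 54.4 TPM and LMAN1, the cargo receptor for factors V and VIII, 109.9 ± 15.4 (SD, n = 8). Of 11 further plasma regulators 9 were found (10 entries, C4BPA having 2), and 5 were liver-enriched, led by APOH at 4970.3 ± 1176 TPM, VTN at 2904 ± 487, HRG at 1234 ± 473 and SERPINA5 at 736 ± 90.5. SERPINB2, an inhibitor of urokinase, was the 1 heart-enriched gene of 8 tissue serpins and plasminogen receptors, at 127 ± 44.7 TPM in heart against at most 1.84 ± 2.05 in the other tissues, and ANXA2, a plasminogen binder, was lung-enriched at 1035 ± 117. ASGR1 and ASGR2, which clear desialylated glycoproteins, were liver-enriched among 6 of 8 receptors found, and SELP and PPBP lung-enriched among 11 of 13 platelet genes found, while none of 5 endothelial antiplatelet genes was enriched.

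The genes whose levels followed a member most closely over the 40 libraries are given as a description, since tissue differences drive all of these values. For VWF they were SOX7 (Pearson's r 0.97), CCDC85A, NDUFA4L2, ALS2CL and RHOJ. For THBD they were NDNF (0.98), TTC9, N4BP3, CEP112 and PALM2AKAP2. For FGB they were FGG (0.99), GC, SERPINC1, HRG and SLC27A5. For the F8 transcripts taken apart they were PLCB4 (0.96), GRK5, COL6A3, PLA2G4A and SVIL, and for the whole F8 entry WDR1 (0.98), MAP2K5, S100A11, PITPNM1 and LDB1.

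BS and DSE pigs were compared within each tissue by limma on log2(TPM + 1) at an adjusted p under 0.05. In liver, transcripts of F2, F7, F10, F12 and SERPINF2 were higher in BS pigs and those of F11 and PROS1 higher in DSE pigs, by 1.42-fold to 1.89-fold. These 7 of 30 members tested compare with 26.9% of all 12147 genes called in liver, a share near the background. By direction, 5 were higher in BS, against 17.5% of all genes, and 2 in DSE livers, against 9.36%. The members' median difference was 0.18 on the log2(TPM + 1) scale, and that of all genes 0.04.

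F10 showed the clearest separation. Its liver level was 659.9, 753, 729.8 and 789.6 TPM in BS1 to BS4 and 441, 388, 452 and 438 in DSE1 to DSE4, a difference of 0.77 (SE 0.11, adjusted p = 0.00339 in limma). F2 was at 489, 430.3, 486 and 472 TPM in BS and 274, 274, 314 and 286 in DSE livers (0.71, SE 0.10, adjusted p = 0.0037 in limma). F7, whose gene ends just upstream of F10 on chromosome 11, was at 62.9, 42.8, 53.8 and 69.3 in BS and 29.9, 28.9, 37.4 and 34.9 in DSE livers (0.77, SE 0.17, adjusted p = 0.0122 in limma). Every BS liver was above every DSE liver for F10, F2 and F7. Other clotting members did not share this direction. F5, the cofactor of factor Xa, was lower in BS livers by value (-0.31, adjusted p = 0.15 in limma), and F11, given below, was higher in DSE livers.

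SERPINF2, the plasmin inhibitor, was also higher in BS livers, at 526, 405, 479 and 582 TPM against 285, 256, 206 and 307 (0.92, SE 0.16, adjusted p = 0.00632 in limma). F12 was at 353, 312, 297 and 331 TPM in BS and 198, 196, 277 and 242 in DSE livers (0.51, SE 0.14, adjusted p = 0.0279 in limma). F11, which activates factor IX, went the other way, at 58.2, 41.9, 47.7 and 41.5 in BS and 78.3, 90.0, 65.6 and 79.2 in DSE livers (-0.72, SE 0.15, adjusted p = 0.0104 in limma). PROS1 was at 201, 136, 216 and 177 in BS and 254, 274, 291 and 246 in DSE livers (-0.56, SE 0.16, adjusted p = 0.0292 in limma). None of these groups overlapped, but neither did those of F9, PROC, F13A1 and THBD, which were not called. In all, 11 of the 30 members tested in liver had no overlap, and the share over all genes was not computed. The calls for F2, F7, F10, F11 and SERPINF2 held with any 1 animal left out, whereas that for F12 held only without BS3 or DSE3 (largest adjusted p 0.076) and that for PROS1 only without BS1 or BS3 (largest 0.074).

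**Figure D4:**
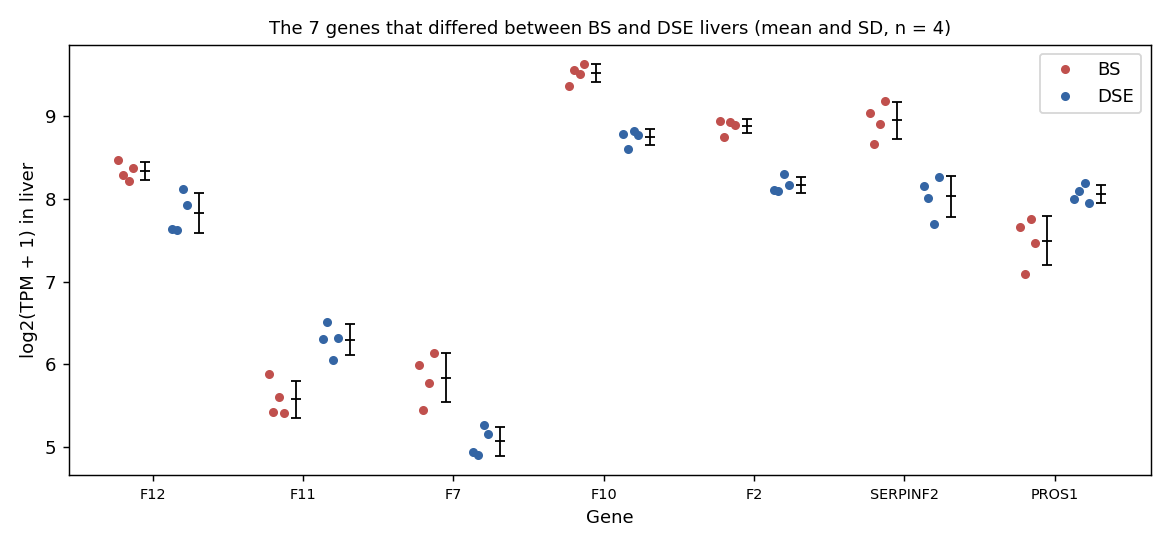
Liver levels, as log2(TPM + 1), of the 7 members that passed the test between BS and DSE livers, with 1 point per animal and bars for the mean and SD of 4 animals. BS points lie above DSE points for F12, F7, F10, F2 and SERPINF2 and below them for F11 and PROS1.

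Other liver-made members did not pass the test in liver. The fibrinogen genes FGB (0.55, adjusted p = 0.171) and FGG (0.47, adjusted p = 0.219), F9 (0.16, adjusted p = 0.262), PROC (0.29, adjusted p = 0.148), SERPINC1 (0.18, adjusted p = 0.251) and PLG (0.09, adjusted p = 0.579 in limma) were among them. Beside these values, 5 of 9 macrophage markers were higher in BS livers, with sums of 1023 to 1702 TPM against 612 to 1050, and 3 of 5 smooth muscle markers, with sums of 67.1 to 173 against 53.1 to 59.8. The 10 hepatocyte markers summed to 64706 to 88730 TPM in BS and 83766 to 125731 in DSE livers, with 1 marker called in each direction. The part of these cell types in the results was not tested.

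In lung, PLAUR was higher in BS pigs and TFPI2 and PROS1 in DSE pigs. PLAUR was at 41.2, 44.3, 44.1 and 44.7 TPM in BS and 25.2, 19.1, 26.9 and 23.5 in DSE lungs (0.86, SE 0.12, adjusted p = 0.00273 in limma). TFPI2 was at 35.0, 38.0, 35.9 and 55.9 in BS and 82.7, 94.2, 114 and 83.0 in DSE lungs (-1.18, SE 0.17, adjusted p = 0.00306 in limma). PROS1 was at 51.7, 56.2, 46.9 and 55.2 in BS and 96.4, 91.3, 123 and 87.6 in DSE lungs (-0.90, SE 0.13, adjusted p = 0.0028 in limma). The calls for these 3 held with any 1 animal left out. Their groups did not overlap, as for 7 of the 19 members tested in lung, and the share over all genes was not computed.

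Of 19 members tested in lung 7 were called, 3 higher in BS and 4 in DSE pigs, against 41% of all 15025 genes (14.3% higher in BS and 26.7% in DSE lungs). After median-ratio scaling, which moved the median lung difference of all genes by 0.24, the members' split was 5 and 3, and the share of BS-higher calls over all genes went from 34.9% to 56.4%. The other 4 were F10 (0.82, adjusted p = 0.0353), KNG1 (-1.49, adjusted p = 0.0283), TFPI (-0.54, adjusted p = 0.0499 in limma) and the F8 entry. TFPI passed the filter on low values only through its DSE mean and lost its call without any 1 animal, F10 lost it without any animal but BS4 or DSE2 (largest adjusted p 0.0861), and KNG1 without BS3, DSE1 or DSE2 (largest 0.0712). The count was 4 without BS3 or DSE1. Beside these values, 4 of 10 endothelial markers were higher in BS and 2 in DSE lungs, 3 of 7 fibroblast markers were higher in DSE lungs, with sums of 1033 to 1584 TPM against 379 to 961, and their part in the results was not tested.

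In kidney 5 of 26 members tested were called, against 33.6% of all 13820 genes (19.2% higher in BS and 14.5% in DSE kidneys). F10 was higher in BS kidneys, at 18.3, 26.3, 14.7 and 18.6 TPM against 8.05, 13.4, 12.2 and 10.3 (0.76, SE 0.20, adjusted p = 0.0212 in limma), as was the F8 entry. F5 (-0.85, adjusted p = 0.0275), F11 (-0.66, adjusted p = 0.0184) and PROS1 (-0.66, adjusted p = 0.0441 in limma) were higher in DSE kidneys, F5 with overlap between the groups and F11 near 1 TPM, where it passed the filter only through its DSE mean. Calls were lost for F10 without DSE1 or DSE4, for F11 without DSE2, for F5 without any animal but BS3, BS4 or DSE1, and for PROS1 without any animal but BS3 or BS4 (adjusted p at most 0.107). The count was 9 without BS3, 3 without BS2, DSE1 or DSE3, and 2 without DSE2 or DSE4. Macrophage markers were higher in BS kidneys for 5 of 8 tested, with sums of 154 to 321 TPM against 76.6 to 105, and their part in the results was not tested.

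Heart and spleen gave few calls. In heart PLAUR alone was called of 14 members tested, against 36.6% of all 12283 genes (23.3% higher in BS and 13.3% in DSE hearts), at 3.71, 5.73, 3.35 and 3.77 TPM in BS and 2.66, 2.72, 2.51 and 1.71 in DSE hearts (0.59, SE 0.16, adjusted p = 0.0213 in limma; 0.0561 without DSE4). The heart count was 2 without BS1 or DSE2 and 4 without BS3 or BS4. In spleen limma called 0 of 16 members, against 27.2% of all 13913 genes (10.8% higher in BS and 16.5% in DSE spleens), and 2 had an unadjusted p under 0.05, PROS1 (-0.66, adjusted p = 0.0658) and PLAUR (-0.47, adjusted p = 0.114 in limma). Median-ratio scaling, which moved the median spleen difference of all genes by 0.12, took the BS share of calls over all genes from 39.5% to 56.5% and left 0 members called. The spleen count was 1 without BS1 and 2 without BS2 or DSE1.

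Over the 5 tissues together, 12 of 31 members were called, against 56.1% of all 16481 genes (25.5% higher in BS and 30.6% in DSE pigs). The members' split was 5 higher in BS and 7 in DSE pigs, and 8 and 6 after median-ratio scaling, while the BS share of calls over all genes went from 45.4% to 52.9%. PROS1 was lower in BS pigs over tissues by 0.64 on the log2(TPM + 1) scale (SE 0.10, adjusted p = 0.000435 in limma). It passed in kidney, liver and lung, whereas in heart (-0.44, adjusted p = 0.0883) and spleen (-0.66, adjusted p = 0.0658 in limma) it did not. DSE pigs were also higher for F5 (-0.51), F11 (-0.43), KNG1 (-0.40), TFPI2 (-0.40), TFPI (-0.34) and A2M (-0.47, adjusted p = 0.0494 in limma, lost without any animal but BS4 or DSE2, largest adjusted p 0.124). BS pigs were higher for F10 (0.49), SERPINF2 (0.43), F7 (0.41), PLAUR (0.36) and the F8 entry (0.35). Each value is a mean over an animal's tissues with equal weight, and some tissues went the other way by value. These were A2M in liver (0.19) and heart (0.11), TFPI2 in kidney (0.15) and F5 in spleen (0.01). In spleen PLAUR (-0.47) and the F8 entry (-0.11) did so too. Of the vitamin K cycle and secretion list, FURIN (0.56), VKORC1 (0.49) and TPST2 (0.34) were higher in BS, and LMAN1 (-0.42), MCFD2 (-0.38) and VKORC1L1 (-0.33) in DSE pigs. Of the plasma regulators, 3 of 10 entries were higher in each group. Beside these values, 6 of 10 hepatocyte markers were higher in DSE and 0 in BS pigs over tissues. In liver alone 1 of the 10 was called in each direction, and the mean over tissues gives every tissue the same weight. Of 9 macrophage markers 5 were higher over tissues in BS and 0 in DSE pigs. Of 10 endothelial markers 5 were higher in BS and 1 in DSE pigs. The part of these cell types in the results was not tested.

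A test of whether the difference between pig groups varied with the tissue, the interaction in limma, called 5 members. This compares with 8.04% of all genes. F2 was higher in BS livers by 0.71 but lower in BS kidneys by value (-0.61, adjusted p = 0.0608), and its interaction had an adjusted p of 0.000712 in limma. In kidney F2 stood at 17.9, 17.4, 25.9 and 37.8 TPM in BS and 38.1, 35.7, 36.1 and 36.3 in DSE pigs, so that only BS4 reached the DSE level. PLAUR (adjusted p = 0.0248 in limma) went from 0.86 in lung to -0.47 in spleen. TFPI2 (adjusted p = 0.0332 in limma) went from -1.18 in lung to 0.15 in kidney. KNG1 (adjusted p = 0.033 in limma) was at -1.49 in lung, -0.16 in kidney and -0.18 in liver. F10 was called too (adjusted p = 0.0282 in limma), but was alike in kidney (0.76), liver (0.77) and lung (0.82). The interaction also takes in heart and spleen, where F10 was at most 0.587 and 0.512 TPM. On the log2(TPM + 1) scale such levels leave little room for a difference. The F2 call held with any 1 animal left out, but the count fell to 1 without BS2, DSE1, DSE3 or DSE4 and to 3 without DSE2, and with a pseudocount of 0.1 in place of 1 it was 0.

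Within the F8 entry, the downstream transcripts passed the test between pig groups in heart, kidney, lung and over tissues. The F8 transcripts passed in no tissue and not over tissues. The whole entry was higher in BS pigs in kidney (0.51, adjusted p = 0.00849) and lung (0.57, adjusted p = 0.00977 in limma). The downstream transcripts alone were at 65.0, 54.4, 60.5 and 61.9 TPM in BS and 38.9, 44.9, 34.4 and 44.1 in DSE kidneys (0.57, adjusted p = 0.00934 in limma), and at 80.3, 89.5, 83.7 and 58.1 against 42.3, 31.0, 36.1 and 36.3 in lung (1.07, adjusted p = 0.00298 in limma). They were also higher in BS hearts, at 13.8 ± 2.34 against 9.18 ± 2.21 TPM (SD, n = 4; 0.56, adjusted p = 0.0334 in limma). The F8 transcripts gave 0.05 in kidney (adjusted p = 0.864) and -0.41 in lung (adjusted p = 0.172 in limma), the latter passing without BS4 (-0.60, adjusted p = 0.0289). In spleen, where the downstream transcripts were highest, their difference was 0.05 (adjusted p = 0.809 in limma). The F8 transcripts there were higher in DSE pigs by value (-0.59, adjusted p = 0.0704 in limma). In liver the downstream transcripts gave 0.62 (adjusted p = 0.0506 in limma). Over tissues the F8 transcripts differed by -0.13 (adjusted p = 0.21) and the downstream ones by 0.57 (adjusted p = 0.000333 in limma). The joining transcript was higher in DSE pigs in spleen, at 6.32 ± 1.59 against 1.1 ± 1.1 TPM (SD, n = 4; -1.93, adjusted p = 0.00891 in limma), in lung (-1.30, adjusted p = 0.0249) and over tissues (-0.62, adjusted p = 0.0143 in limma).

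In short reads, A2M transcripts with an upstream start were found mainly in lung, and more in DSE than in BS lungs. Of its 25 transcripts (chr5:62406924-62483733, plus strand), 6 began at an upstream position, 62406924, and the others at 62437847 or beyond. The upstream-start transcripts were at 21.4, 16.3, 18 and 242 TPM in BS1 to BS4 and at 764, 337, 433 and 286 in DSE1 to DSE4 lungs. The groups did not overlap, although BS4 came close to the lowest DSE lung. The difference was -3.53 on the log2(TPM + 1) scale (SE 0.79, adjusted p = 0.00994 in limma), and it held with any 1 animal left out (-4.44 to -3.17). In lung 41% of all genes were called, and the adjusted p does not cover the choice of these transcripts after seeing the data.

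The other A2M transcripts differed less between the groups in lung, at 519 ± 188 TPM in BS and 599.9 ± 162 in DSE pigs (SD, n = 4; -0.23, adjusted p = 0.509 in limma). Upstream starts made up 25.7% ± 20.1 of A2M in lung (SD, n = 8), from 2.88% to 55.9%, and a mean of at most 0.39% in the other tissues. This split was made after seeing the data. In long reads, 8 of 583 A2M reads in the BS lung library (1.37%, Wilson 95% interval 0.697 to 2.68) and 23 of 801 in the DSE library (2.87%, 1.92 to 4.27) had the upstream start, so the long-read share was lower than the short-read one. Long reads also placed it in liver, with 7 reads in the BS library (24.8 per 1000000) and 12 in the DSE library (55.5), against 39.1 and 110 per 1000000 in the BS and DSE lung libraries. The DSE liver was thus above the BS lung, and the Wilson 95% intervals of these libraries overlap (31.8 to 97.0 and 19.8 to 77.1).

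**Figure D5:**
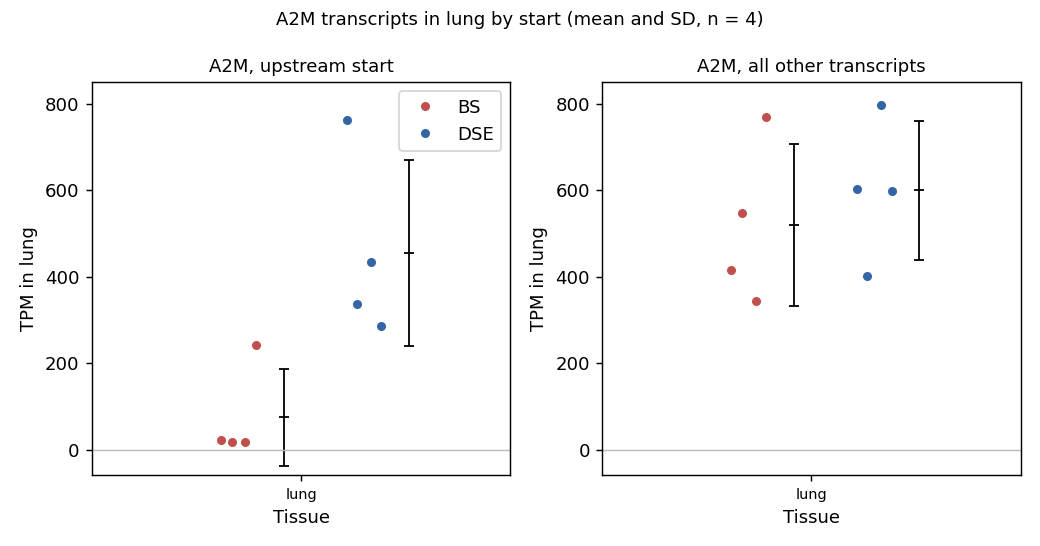
TPM in lung of A2M transcripts with the upstream start (left) and of all other A2M transcripts (right), with 1 point per animal and bars for the mean and SD of 4 animals, the lower bar of BS reaching below 0. The upstream start is between 16.3 and 242 TPM in BS and between 286 and 764 in DSE lungs, while the other transcripts overlap between the groups.

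Which transcript a gene used also differed between tissues for A2M. Only genes that averaged 5 TPM or more in all 5 tissues were tested, and 22.1% of these 4993 genes (15% of their transcripts) had a transcript whose share differed by at least 20 percentage points with an adjusted p under 0.05 in limma. Among members, A2M, F8, PROS1 and TFPI2 were tested, and A2M and F8 passed. The A2M transcript PB.7188.12 held 34.9% of the gene in heart, 23.4% in kidney, 14.0% in spleen, 4.84% in lung and 1.55% in liver (adjusted p = 1.68e-08 in limma). PB.7188.37 held 40.1% in liver, 39.5% in lung and 36.8% in kidney but 18.9% in spleen and 11.6% in heart (adjusted p = 0.00024 in limma). For F8 the passing transcripts were those that tell F8 from the downstream gene. Between liver and kidney alone, a comparison added after seeing the data, A2M was the 1 member called, against 5.72% of 6017 genes, and not without DSE2 or DSE3. The other members tested there were F2, F5, F8, F9, F10, FGB, FGG, PROC, PROS1, SERPINC1, SERPINF2, KNG1, CPB2 and TFPI2. The FGB transcript PB.11357.17 held 13.2% in kidney and 0.195% in liver there without passing (adjusted p = 0.0759 in limma).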

How the data were processed

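Short reads gave TPM per gene and transcript in 40 libraries, deposited by the authors, with each column summing to 1000000. PacBio reads gave full-length counts per transcript in 10 libraries, deposited as raw counts and summed here per gene. Per the submitters' processing notes, STAR 2.7.10a, Salmon 1.10.1 and the build susScr11 were used, and the deposited annotation was written by rtracklayer 1.58.0 per the file headers. The strand setting of the counting is not given in the sources used here. Of the full-length counts, 51.9% lay in transcripts assigned to their own gene, 35.9% at the locus of 1 gene, 3.16% at several and 9.1% matched no annotated transcript. Columns that match no label (20 of genes, 20 of transcripts and 5 of full-length counts) were not used. The labels give no batch.

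The 32 members, the gene lists and the tests were chosen with earlier results of these data known. All 32 members are reported, and of each other pathway list its counts and up to 4 passing genes with the largest difference. Genes that averaged 1 TPM or more in any group compared were tested by limma 3.58.1 (R 4.3.3) on log2(TPM + 1) with a trended prior and Benjamini-Hochberg adjustment over all genes tested. Enrichment needed a 4-fold excess over each of the 4 other tissues, and BS against DSE had no minimum fold. Transcript usage was tested on log2 shares with a pseudocount of 0.5 for transcripts at 5% of their gene or more. Full-length counts were tested by edgeR 4.0.16, with DESeq2 1.42.0 as an alternative. Correlations used exact permutation in scipy 1.17.1. Scripts were tested on simulated data. P-values from the short reads measure the spread between these animals, and the main fits between tissues take the libraries of an animal as independent. Those from full-length counts rest on 1 library per pig group and tissue, so they hold no spread between animals of a group.

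The same animals gave all tissues, by their titles, so an animal block was an alternative for comparisons between tissues. The median correlation of an animal's deviations between its tissues was -0.03 to 0.18. BS and DSE animals share only numbers. Other alternatives were the pseudocount, the filter, median-ratio scaling, each animal or library left out, and the positional splits of F8, VWF and A2M, chosen after seeing the data.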

Additional observations from a re-analysis of the deposited data

Results flagged for a closer look

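Of 78 groups of 4 or 8 animals checked for a sample apart from the rest, 5 had one, and chance gives about 1 in 20. A2M in liver was highest in BS4, at 1118 TPM against 781 to 936 in the other livers. TFPI in lung was highest in DSE3, at 2.86 TPM, apart both from the other DSE lungs and from all lungs. TFPI2 among BS lungs was highest in BS4, at 55.9 TPM against 35.0 to 38.0, and the upstream-start transcripts of A2M among BS lungs were highest in the same animal, at 242 TPM against 16.3 to 21.4.

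The interaction in limma called the BS to DSE difference as varying between tissues for F2 (adjusted p = 0.000712, 0.71 in liver and -0.61 in kidney). It also called PLAUR (0.0248), F10 (0.0282), KNG1 (0.033) and TFPI2 (0.0332). F10 was nevertheless alike in kidney (0.76), liver (0.77) and lung (0.82), and was below the filter in heart and spleen.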

How the results depend on the processing

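The 15 members enriched in liver and 2 in lung were so with each animal left out and with an animal as replicate block, and the 12 called over tissues stayed between 11 and 14. Median-ratio scaling turned the direction of VWF lung over heart (-0.42), TFPI lung over heart (-0.16), PLAT kidney over heart (-0.68) and PLAUR lung over spleen (-0.22), the last also without BS4 (-0.0755) or DSE3 (-0.02; range -0.0755 to 0.13 with each animal left out). F8 transcripts in kidney, 0.05 between groups, gave -0.11 without BS2 and -0.08 without DSE4 (range -0.11 to 0.20). Scaling gave 4 called members in heart in place of 1, and 8 higher in BS and 6 in DSE pigs over tissues in place of 5 and 7. With no filter on low values, 0 members were called in heart, 3 in kidney, 4 in lung and 1 in spleen. With the number shared by BS and DSE animals as a replicate block, 3 were called in kidney and 1 in spleen, and 5 in liver, 5 in lung and 12 over tissues. With each animal left out, the calls between BS and DSE ranged from 1 to 4 in heart, 2 to 9 in kidney (9 without BS3), 5 to 10 in liver, 4 to 9 in lung and 0 to 2 in spleen. The interaction called 1 to 6 members with an animal left out, 6 with an animal as replicate block and 0 at a pseudocount of 0.1. Liver to kidney usage gave 0 to 1. Full-length counts gave 9 to 15 members enriched in liver with each library left out, which leaves a tissue with 1 library whose spread is assumed to be that of the others, and 5 by DESeq2, where 8 of the 9 lost calls stayed at least 4-fold with an adjusted p of 0.324 to 1. KNG1 (2.01) was also lost with no filter (1.92). The causes were not tested. Of the single-gene alternatives, 953 kept direction and side of the threshold, 127 lost the call, 2 gained one and 8 turned. The depth of the TPM values is unknown, and long reads set no level below 6.57 to 25.1 per 1000000 reads.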
